A study of Homo sapiens with 12 samples.

Results

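Genes that tumour cells use to export or neutralise drugs, 10 in all, were followed across 4 groups of leukaemia libraries. They are the vault gene MVP, the ABC transporter genes ABCB1, ABCC1, ABCC3, ABCC4, ABCC5 and ABCG2, and the glutathione genes GSTP1, GCLC and GCLM. All 10 symbols were found among the 55765 rows of the count table, and 7 of them passed the filter on low counts that left 11474 genes. The set was put together because MVP rose and because these genes are linked to chemotherapy resistance. MVP was thus chosen by a measured rise, in a comparison that the choice does not name. That comparison is taken throughout to be the S222A induction, the only induction on which MVP rose. The MVP change there is given as a description with no test. The other 9 genes were added for their link to resistance, by a choice made with earlier results of these libraries known.

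Expression was measured by RNA sequencing in OCI-AML2, an established human acute myeloid leukaemia line, in single-cell clones in which doxycycline switches on a construct for MEF2C, a MADS-box transcription factor. The construct encoded either wild-type MEF2C (WT) or MEF2C with S222A, a serine-to-alanine change. Induced cells of either line were held in 3 ml with 600 ng doxycycline, and uninduced cells with vehicle, for 48 h, which makes 4 groups of 3 libraries. How many clones stand behind each construct is unstated, all groups keep their own MEF2C gene, and doxycycline-treated cells lacking a construct were not analysed here.

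Library totals ran from 875710 to 13134791 counts, and the deepest library of each group lay apart from the other 8 on the first principal component (33.5 to 44.4 against -51.3 to -2.16). MEF2C itself stood at 645.3 to 816.7 CPM (counts scaled to a library size of 1e+06) in WT uninduced and 674.4 to 844.1 CPM in WT induced libraries. It stood at 605.3 to 801.6 CPM in S222A uninduced and 786.3 to 956.1 CPM in S222A induced libraries. No rise was called in WT (log2 fold change 0.08 ± 0.16 SE) or S222A cells (0.34 ± 0.16 SE; edgeR quasi-likelihood adjusted p = 1 and 0.285). The groups are thus named by treatment and not by MEF2C RNA. Of 7 markers listed for a myeloid leukaemia line 6 were tested, and together the 7 stood at 713.5 to 893.4 CPM in every library. Most of that sum was PTPRC, the gene of the leukocyte common antigen, with group means of 583.9 to 706.4 CPM. Group means were 42.8 to 60.8 CPM for SPI1, 53.9 to 66.5 CPM for CSF3R and 35.1 to 41.8 CPM for CD33, while CD34 had group means of 0 to 0.177 CPM. Erythroid, B cell, T cell and fibroblast markers summed to at most 3.46 CPM. Of 3 epithelial markers, EPCAM and KRT19 had no count, and CDH1 had group means of 20.7 to 28.4 CPM. Within the myeloid list, group means of the granule enzyme MPO were 17.7 CPM in WT uninduced, 8.37 in WT induced, 7.24 in S222A uninduced and 2.12 CPM in S222A induced cells. Those of the stem cell factor receptor KIT were 1.79, 3.41, 1.01 and 6.52 CPM in the same order, with 0 to 1.802 CPM in S222A uninduced and 5.195 to 7.58 CPM in S222A induced libraries. The part of either in the results that follow was not tested.

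ABC transporters are membrane proteins that spend ATP to move substrates across membranes, and several of them pump anticancer drugs out of cells. ABCB1 (P-glycoprotein), ABCC1 (MRP1) and ABCG2 (BCRP) are the classical multidrug pumps, and the ABCC proteins also export drugs conjugated to glutathione. The catalytic subunit GCLC with its modifier subunit GCLM carries out the first, rate-limiting step of glutathione synthesis, and the transferase GSTP1 joins glutathione to electrophiles. MVP, the major vault protein, forms the shell of the vault, a large ribonucleoprotein particle of the cytoplasm that was first tied to drug resistance under the name lung resistance-related protein.

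The sequences just before the start of MVP, GSTP1 and GCLM are shown because MVP is the member that rose, and because the other 2 carry the letters of an antioxidant response element, the DNA element bound by the transcription factor NRF2. Each run is the 250 bases before an annotated start, 5′ to 3′ on the gene's strand, from RefSeq on GRCh38.p14, whereas the counts were made on hg19. They lie at chr16:29820144-29820393 (plus strand, MVP, the first of 3 annotated starts), chr11:67583562-67583811 (plus strand, GSTP1) and chr1:93909431-93909680 (minus strand, GCLM). Capitals mark a match to TGACNNNGC on either strand.
MVP: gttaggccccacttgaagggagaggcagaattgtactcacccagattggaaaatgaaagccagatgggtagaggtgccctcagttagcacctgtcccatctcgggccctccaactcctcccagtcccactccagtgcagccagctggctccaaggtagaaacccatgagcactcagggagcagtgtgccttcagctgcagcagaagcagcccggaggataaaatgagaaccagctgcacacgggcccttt
GSTP1: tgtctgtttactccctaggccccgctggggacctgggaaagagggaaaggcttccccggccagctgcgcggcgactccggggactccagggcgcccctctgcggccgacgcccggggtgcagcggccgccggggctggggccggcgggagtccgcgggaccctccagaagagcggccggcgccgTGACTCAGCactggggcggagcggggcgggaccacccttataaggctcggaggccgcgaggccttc
GCLM: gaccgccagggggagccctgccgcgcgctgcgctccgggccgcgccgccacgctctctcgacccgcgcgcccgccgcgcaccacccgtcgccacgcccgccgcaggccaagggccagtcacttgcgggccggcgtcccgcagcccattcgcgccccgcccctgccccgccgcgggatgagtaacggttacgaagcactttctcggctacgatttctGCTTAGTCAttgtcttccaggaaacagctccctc

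The match began 66 bases before the start in GSTP1, where it also holds TGACTCA, the letters of an AP-1 site, and 34 bases before it in GCLM. RefSeq gave 15 such windows for 8 of the 10 genes, and ABCC1 and ABCC3 had no entry. ABCC4 held 1 further match, 149 bases before its start. Over all 35114 windows of the same length 10.9% held a match. The palindromic MEF2 core, CTA and TAG separated by 4 bases of any kind, was in none of the 15 windows and in 2.36% of all windows. The 3 MVP windows were poor in the dinucleotide CG, with 3, 4 and 4 of them, against a median of 11 over all windows. GSTP1 had 28, GCLM 36 and ABCC4 42, more than 84.1%, 95.2% and 98.6% of all windows. A match is a run of letters only, and no binding was measured here.

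MVP RNA was low in 3 of the groups and higher in S222A induced cells. WT uninduced libraries stood at 5.55, 4.44 and 3.27 CPM, and WT induced libraries at 3.80, 2.24 and 4.21 CPM. S222A uninduced libraries stood at 4.68, 4.51 and 2.19 CPM, and S222A induced libraries at 18.01, 19.6 and 14.9 CPM. All 3 S222A induced libraries thus lay above the other 9, and the other 3 groups overlapped each other in all pairs. The group means were 4.42 ± 1.14, 3.42 ± 1.04, 3.80 ± 1.39 and 17.5 ± 2.397 CPM in the same order (SD, n = 3). In bulk RNA, fewer cells with a transcript and less of it per cell cannot be told apart.

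These values rest on few reads. MVP had 42, 44, 52 and 327 counts in the 4 groups, and WT induced replicate 2 and S222A uninduced replicate 3 held 2 counts each. The exact Poisson 95% interval was 0.272 to 8.10 CPM in the former and 0.265 to 7.91 CPM in the latter, and it covers counting error only. In the deepest library, S222A induced replicate 3, it was 12.8 to 17.2 CPM from 187 counts.

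**Figure D1:**
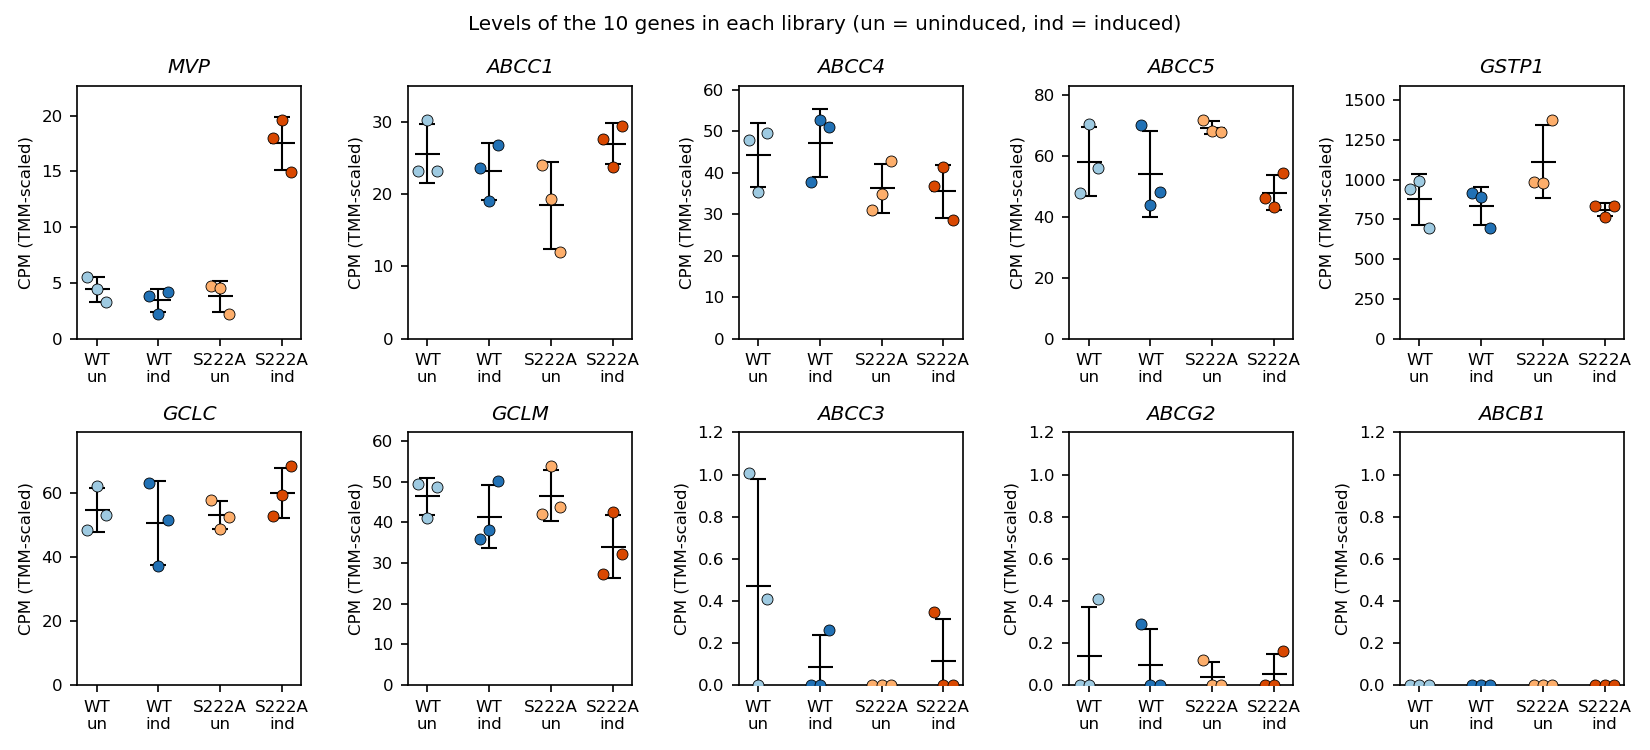
Level of each of the 10 genes (CPM scaled by TMM factors, linear axes from 0) in the 4 groups; points are libraries, and bars are the mean ± SD of 3. MVP stands at 14.9 to 19.6 CPM in S222A induced and at 2.19 to 5.55 CPM in all other libraries, while ABCB1 had no count.

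On S222A induction the fitted MVP change was 4.13-fold (log2 2.05 ± 0.30 SE), the values for which it was chosen. Against the WT induced cells MVP was 4.67-fold higher in S222A induced cells (log2 2.22 ± 0.31 SE), a comparison that shares the S222A induced libraries. Before induction the lines stood at a log2 difference of -0.06 ± 0.34 SE. The WT induction compares none of the S222A libraries and can be tested, although its spread was estimated over all 4 groups, the S222A libraries included. MVP had a fold of 0.847 there (95% interval 0.512 to 1.40; edgeR adjusted p = 1), so a WT rise of more than 1.40-fold lies outside that interval. The induction effects differed by 2.28 ± 0.45 SE on the log2 scale (S222A minus WT), again with no test. In GENCODE 29 an antisense gene and a same-strand gene overlap MVP. Reads from MVP and the antisense gene cannot be told apart without the strand setting, which is not given in the sources used here, and shared reads of the same-strand gene cannot be told apart with any setting.

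The rise of MVP had the same direction under each of the 21 alternative fits. Its log2 fold change lay between 1.90 (without S222A uninduced replicate 3) and 2.31 (without the deepest library of each group). These fits reuse the libraries for which MVP was chosen, so they describe how far the value moved and lend the rise no support. Within the deepest libraries alone the log2 change was 1.58 from S222A uninduced to induced and -0.20 in WT. Among the other libraries it was 2.41 and -0.41. Over the same fits the WT change ran from -0.40 to -0.08 and stayed uncalled.

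**Figure D2:**
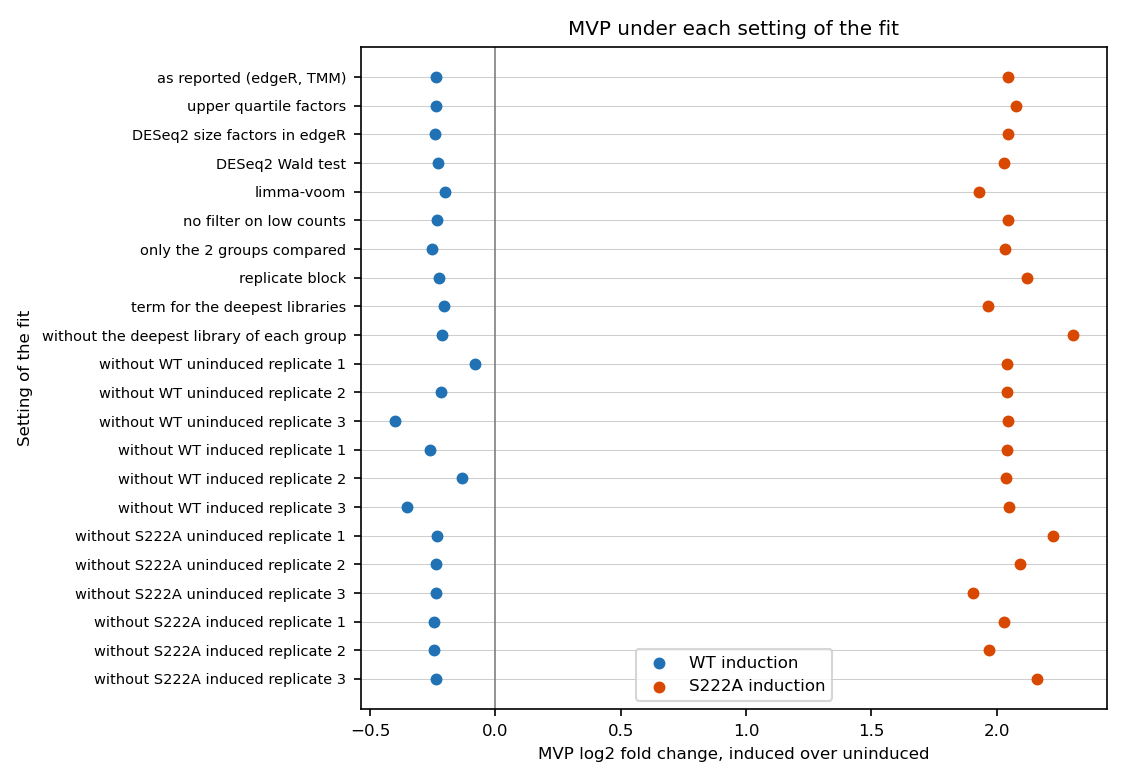
MVP log2 fold change, induced over uninduced (horizontal axis), under the reported fit and 21 alternatives (vertical axis), for the WT and the S222A line. The S222A values lie between 1.90 and 2.31 and the WT values between -0.40 and -0.08. The fits reuse the libraries for which MVP was chosen, so the S222A values are a description only.

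The 2 other vault genes that were tested did not follow MVP past the test. The particle also holds TEP1 (telomerase-associated protein), PARP4 (the vault poly-ADP-ribose polymerase) and the short vault RNAs. TEP1 stood at 3.29 to 9.85 CPM in S222A uninduced and 5.54 to 12.9 CPM in S222A induced libraries (log2 0.11 ± 0.40 SE, edgeR adjusted p = 0.933). PARP4 stood at 20.1 to 53.7 and 22.7 to 46.4 CPM (log2 0.16 ± 0.53 SE, adjusted p = 0.926). The S222A ranges overlapped for both genes, and in each group the deepest library held the lowest PARP4 level (14.03 to 22.7 CPM). The 4 vault RNA genes had at most 19 counts in a library and were not tested.

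ABCB1, ABCG2 and ABCC3 were at or near the limit of detection in all groups. ABCB1 had no count in any of the 12 libraries, which hold 54020244 counts in all. Taking 3 counts as the limit that a count of 0 allows, ABCB1 could stand at up to 0.0555 CPM over the pooled libraries, and the exact Poisson 95% interval reaches 0.0683 CPM. ABCG2 had 6 counts in 4 libraries (0.111 CPM, exact Poisson 95% interval 0.0408 to 0.242), at most 2 in a library. ABCC3, a pump of organic anions such as bile salts, had 5 counts in 4 libraries (0.0926 CPM, interval 0.0301 to 0.216). No change of these 3 genes between groups was detectable at these counts, and the intervals cover counting error only.

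The detected pumps were ABCC1, ABCC4 and ABCC5, and none of them changed past the test in any of the 5 comparisons. ABCC1 stood at 23.2, 30.3 and 23.3 CPM in WT uninduced and 23.7, 19.1 and 26.8 CPM in WT induced libraries. It stood at 24.0, 19.3 and 12.05 CPM in S222A uninduced and 27.7, 23.9 and 29.5 CPM in S222A induced libraries. The S222A groups overlapped at their margin, with the lowest value from S222A uninduced replicate 3 (11 counts). The S222A induction gave ABCC1 a log2 fold change of 0.47 ± 0.23 SE (edgeR adjusted p = 0.301) and the WT induction -0.12 ± 0.23 SE (adjusted p = 1). The S222A value was 0.30 without S222A uninduced replicate 3 and 0.73 without S222A uninduced replicate 1 (adjusted p = 0.530 and 0.192).

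ABCC4 (MRP4) exports cyclic nucleotides and nucleoside analogues. Its level was 47.9, 35.3 and 49.4 CPM in WT uninduced and 37.7, 52.7 and 51.1 CPM in WT induced libraries. In the S222A line it was 31.0, 34.9 and 42.7 CPM uninduced and 36.7, 41.3 and 28.6 CPM induced. All 4 groups overlapped, and the deepest library was the lowest of its group each time. On S222A induction the fold was 0.998 (95% interval 0.720 to 1.38), so larger changes than these bounds lie outside the interval. Between the lines ABCC4 had a log2 difference of -0.40 ± 0.21 SE after induction (edgeR adjusted p = 0.314). With a term for the deepest libraries in the fit this difference was called (log2 -0.40, adjusted p = 0.0456), where 21.6% of all genes were called.

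ABCC5 (MRP5), another exporter of cyclic nucleotides and nucleotide analogues, stood at 71.8, 68.1 and 67.9 CPM in S222A uninduced and 46.1, 43.3 and 54.4 CPM in S222A induced libraries. These groups did not overlap. The WT libraries spanned both, at 47.9, 70.5 and 56.0 CPM uninduced and 70.0, 43.7 and 48.2 CPM induced, with the deepest library highest in each. On S222A induction ABCC5 had a log2 fold change of -0.53 ± 0.20 SE (edgeR adjusted p = 0.166), and with a term for the deepest libraries it was called at -0.52 (adjusted p = 0.0123).

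GSTP1, the pi-class glutathione transferase, had the highest level of the 10 genes in every group. It stood at 940.2, 993.5 and 693.3 CPM in WT uninduced and 914.1, 889.0 and 698.2 CPM in WT induced libraries. It stood at 984.1, 980.9 and 1375 CPM in S222A uninduced and 835.7, 762.4 and 836.0 CPM in S222A induced libraries. The S222A groups did not overlap, and S222A uninduced replicate 3 was the highest of all 12. The log2 fold change on S222A induction was -0.46 ± 0.19 SE (edgeR adjusted p = 0.208). It was -0.28 without S222A uninduced replicate 3 (adjusted p = 0.493), and GSTP1 was called with a term for the deepest libraries (-0.46, adjusted p = 0.0408). The pseudogene GSTP1P1 had 1 count in all libraries together.

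Neither subunit of glutamate-cysteine ligase passed the test. GCLM stood at 42.0, 53.8 and 43.8 CPM in S222A uninduced and 27.4, 42.6 and 32.1 CPM in S222A induced libraries, which overlapped by 1 library (log2 -0.45 ± 0.21 SE, edgeR adjusted p = 0.258). GCLC stood at 57.8, 48.8 and 52.6 CPM and then 52.6, 59.3 and 68.2 CPM, overlapping more widely (log2 0.18 ± 0.19 SE, adjusted p = 0.704). With single libraries left out, the GCLC value was lowest when S222A induced replicate 3 was dropped (0.078) and highest when S222A uninduced replicate 1 was dropped (0.27). In WT cells GCLM lay between 41.1 and 49.5 CPM before induction and between 35.8 and 50.3 CPM after it. GCLC lay between 48.4 and 62.0 and then between 37.0 and 63.1 CPM, so both WT ranges overlapped.

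Per kilobase of exon, from GENCODE 29 gene models on a later build than the counts, the levels of the genes can be set side by side. In S222A induced cells GSTP1 had 425 CPM per kb, far above GCLC (6.95), GCLM (6.28), ABCC5 (4.19), ABCC4 (4.11), ABCC1 (3.57) and MVP (2.85). In S222A uninduced cells MVP had 0.618 CPM per kb, below ABCC1 (2.44), ABCC4 (4.19), ABCC5 (6.06), GCLC (6.14) and GCLM (8.59). MVP was thus the lowest of the 7 genes that passed the filter on this scale before and after induction. These lengths count every annotated exon, so they overstate the length of transcripts that use few of them.

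Counted over the 9 genes other than MVP, of which 6 were tested, edgeR called 0 on S222A induction, where 4.45% of all tested genes were called (2.8% higher and 1.66% lower). DESeq2 and limma-voom also called 0. At an unadjusted p under 0.05 stood 3 of the 6 (ABCC5, GSTP1 and GCLM, all with negative changes), where 19.1% of all genes stood. In 2 of the 6 the S222A groups did not overlap, both lower, against 13% of all genes lower without overlap and 27.5% in either direction. The median log2 fold change of the 6 was -0.23 beside 0.01 over all genes. With a term for the deepest libraries, 2 of the 6 were called, against 17.9% of all genes.

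In the other comparisons edgeR, DESeq2 and limma-voom called 0 of the 6 genes each. On WT induction, where 0.00872% of all genes were called and 1.7% stood at an unadjusted p under 0.05, 0 of the 6 stood there and the median log2 fold change was -0.08. For the difference of induction effects (0.0784% of all genes called) the largest value was that of ABCC1, at 0.59 ± 0.33 SE (edgeR adjusted p = 0.830). Between the uninduced lines (0.392% of all genes called) the values ran from -0.40 ± 0.24 SE for ABCC1 to 0.34 ± 0.19 SE for GSTP1 (adjusted p = 0.788 and 0.754). Between the induced lines (6.34% of all genes called) they ran from -0.40 for ABCC4 to 0.22 ± 0.19 SE for GCLC (adjusted p = 0.590). None of the 6 stood at an unadjusted p under 0.05 in these 3 comparisons either, against 6.68%, 7.48% and 21.2% of all genes. The comparisons share libraries and are not independent.

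**Figure D3:**
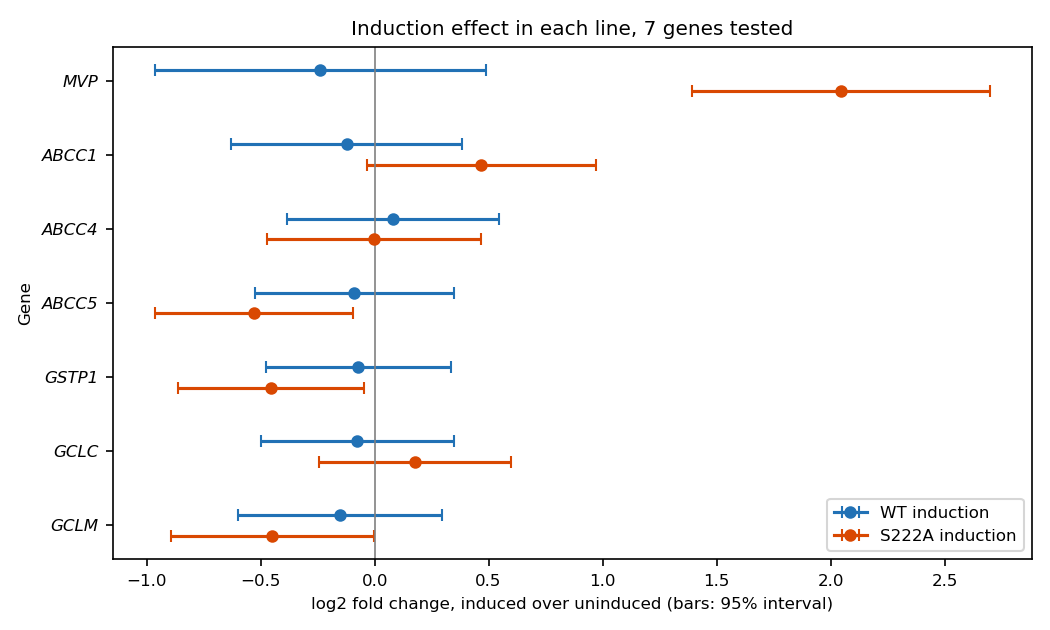
Log2 fold change of induced over uninduced cells (horizontal axis, bars are 95% intervals) for the 7 genes that passed the filter, in the WT and the S222A line. MVP in the S222A line stands at 2.05, and the values of the 6 other genes lie between -0.53 and 0.47. The S222A value of MVP is the one for which it was chosen, so its bar there is a description and no test.

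Among 42 further ABC genes 21 were tested, and 1 was called higher and 0 lower on S222A induction (median log2 0.01). Over all 7 lists 4 of 82 tested genes were called there (4.88%), near the 4.45% of all genes, so the counts by list are given with no reading of the list as a whole. That gene was ABCB4, the phosphatidylcholine floppase of the canalicular membrane, which is a close relative and the chromosomal neighbour of ABCB1. ABCB4 stood at 3.60, 2.05 and 3.29 CPM in S222A uninduced and 12.8, 11.6 and 10.2 CPM in S222A induced libraries. These groups did not overlap, and S222A uninduced replicates 2 and 3 held 5 and 3 counts. ABCB4 rose 3.71-fold (log2 1.89 ± 0.34 SE, edgeR adjusted p = 0.00778), and the call held in all 21 alternatives (adjusted p up to 0.0470). In the WT line ABCB4 had 3.03, 3.09 and 6.13 CPM with vehicle, then 6.43, 5.61 and 7.37 CPM with doxycycline (log2 0.72 ± 0.35 SE, adjusted p = 1). The difference of the 2 effects was 1.17 ± 0.49 SE (adjusted p = 0.716) and was not called, so ABCB4 is not shown to respond differently in the lines. Its neighbour ABCB1 had no count in the same libraries.

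Glutathione synthesis, turnover and reduction had 18 of 25 listed genes tested, with 1 higher and 0 lower on S222A induction (median log2 -0.17). GPX1, the peroxidase that reduces hydrogen peroxide with glutathione, stood at 411.3, 370.6 and 407.4 CPM in S222A uninduced and 654.6, 643.3 and 681.0 CPM in S222A induced libraries. The groups were well apart, and the WT groups lay at 356.2 to 427.2 and 331.8 to 457.2 CPM. GPX1 rose 1.66-fold (log2 0.73 ± 0.15 SE, edgeR adjusted p = 0.0148). It lost its call without S222A uninduced replicate 2 (adjusted p = 0.0939) and without S222A induced replicates 1, 2 and 3 (0.0657, 0.0556 and 0.0585).

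SLC7A11, which imports the cystine that glutathione synthesis needs, was the 1 gene of all these lists that differed between the uninduced lines, and is named after its values were seen. It stood at 23.2, 25.7 and 22.1 CPM in WT uninduced and 93.5, 89.9 and 51.5 CPM in S222A uninduced libraries. S222A uninduced replicate 3 was the lowest of its line, yet all S222A values lay above all WT values. SLC7A11 was 3.36-fold higher in the S222A line before induction (log2 1.75 ± 0.21 SE, edgeR adjusted p = 0.00169). The call was lost when only these 2 groups were fitted (adjusted p = 0.0538). After induction it stood at 27.9, 24.7 and 24.7 CPM in WT and 113.9, 119.3 and 122.1 CPM in S222A cells, 4.56-fold apart (adjusted p = 5.48e-05). Doxycycline changed it in neither line past the test (log2 0.57 ± 0.19 SE in S222A, adjusted p = 0.115, and 0.13 ± 0.21 SE in WT, adjusted p = 1). Since the clones behind each line are not described, line and clone cannot be told apart.

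For the other transferases and the NRF2 genes the counts are again given with no reading of the lists, beside the 4.45% of all genes called. Of 19 further glutathione transferase genes 8 were tested and 0 called on S222A induction by edgeR, DESeq2 or limma-voom, with 0 at an unadjusted p under 0.05 (median log2 -0.15). Of 10 regulators of the NRF2 pathway, among them NRF2 itself (NFE2L2) and its repressor KEAP1, 9 were tested and 0 called by the same 3 tools, with 0 at an unadjusted p under 0.05 (median 0.03). Of 22 NRF2 target genes 16 were tested, with 0 higher and 1 lower (median -0.27, 5 above 0 and 11 below). At an unadjusted p under 0.05 stood 5 of these 16, beside 19.1% of all genes on S222A induction. In the other lists 7 of the 21 further ABC genes and 6 of the 18 genes of glutathione synthesis, turnover and reduction stood there. So did 3 of the 8 reported regulators of drug transporters described below, and 0 of the 2 vault genes.

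The NRF2 target called lower was TKT, transketolase of the pentose phosphate pathway. It stood at 491.2, 417.4 and 462.1 CPM in S222A uninduced and 258.4, 288.8 and 335.7 CPM in S222A induced libraries, with no overlap. TKT fell by 0.63 ± 0.14 SE on the log2 scale (edgeR adjusted p = 0.0236). The WT libraries, uninduced and induced, stayed within 473.8 to 503.3 CPM. The TKT call was lost in 8 of 21 alternatives, 5 of which left out S222A uninduced replicate 1, 2 or 3 or S222A induced replicate 1 or 2 (adjusted p = 0.0896, 0.0612, 0.0512, 0.133 and 0.107).

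Of 11 reported regulators of drug transporters 8 were tested, with 1 higher and 0 lower on S222A induction (median log2 0.28). FOXO3, a forkhead transcription factor, stood at 40.7, 36.9 and 33.9 CPM in S222A uninduced and 63.4, 73.1 and 74.7 CPM in S222A induced libraries, which did not overlap. FOXO3 rose 1.87-fold (log2 0.91 ± 0.18 SE, edgeR adjusted p = 0.0137). WT libraries ranged from 28.8 to 42.1 CPM with vehicle and from 35.1 to 41.5 CPM with doxycycline. The call was lost without S222A uninduced replicate 2 (adjusted p = 0.0654) and S222A induced replicates 2 and 3 (0.0576 and 0.0562).

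**Figure D4:**
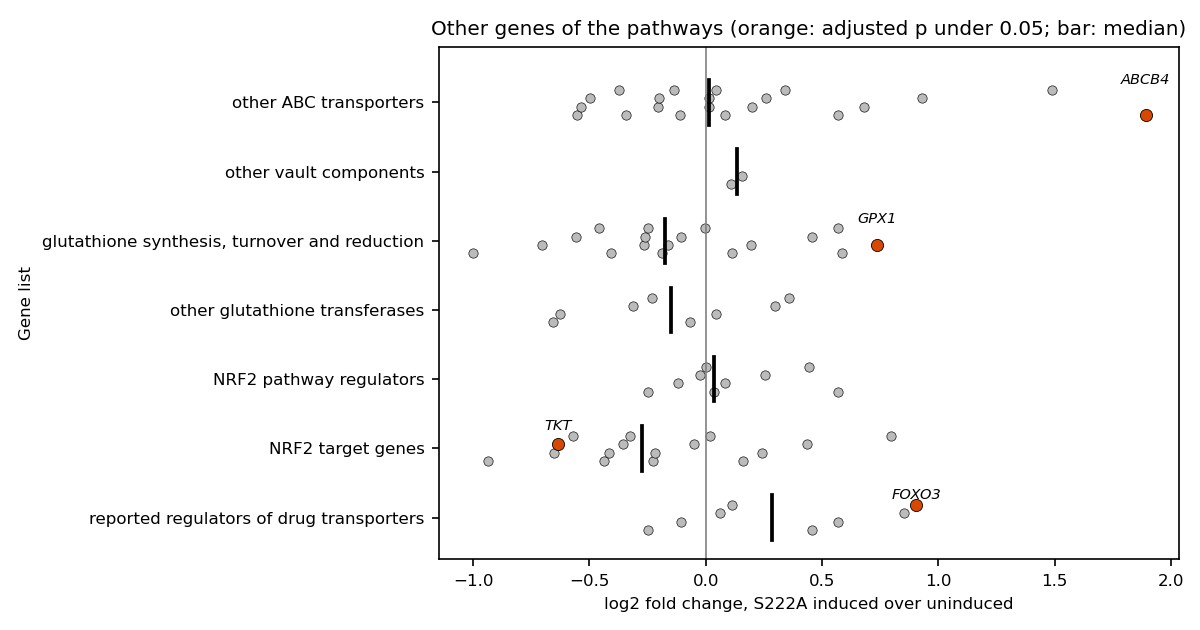
Log2 fold change on S222A induction (horizontal axis) of each tested gene of the 7 pathway lists (vertical axis); points are genes, orange points have an edgeR adjusted p under 0.05, and black bars are list medians. The 4 called genes are ABCB4 (1.89), FOXO3 (0.91), GPX1 (0.73) and TKT (-0.63).

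On WT induction 0 genes of the 7 lists were called by edgeR, DESeq2 or limma-voom, where edgeR called 0.00872% of all genes. At an unadjusted edgeR p under 0.05 stood 0 of the list genes, beside 1.7% of all genes. With shares this low over all genes, the counts of 0 are given with no reading of the lists. The same 4 genes differed from WT induction by a log2 of 1.17 (ABCB4), 0.75 (GPX1), -0.62 (TKT) and 0.67 (FOXO3), and none of these differences was called (edgeR adjusted p = 0.716, 0.421, 0.527 and 0.680).

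Between the induced lines, a comparison that shares the S222A induced libraries, 9 of the 82 genes tested in the lists were called (11%, against 6.34% of all genes), and they are named after their values were seen. Among the ABC genes ABCA7, a lipid transporter, was higher in S222A cells (log2 1.65, edgeR adjusted p = 0.0349). ABCE1 and ABCF2, ABC proteins without a membrane domain, were lower (-0.73 and -0.78, adjusted p = 0.0294 and 0.0167). Of the glutathione genes GPX1 and SLC7A11 were higher and ESD, the S-formylglutathione hydrolase, lower (-0.73, adjusted p = 0.0329). TKT was the 1 NRF2 target called, lower (-0.73, adjusted p = 0.00941). FOXO3 and RXRA, the retinoid X receptor alpha, were higher among the reported regulators (0.86 and 0.71, adjusted p = 0.0154 and 0.0334).

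The 5 genes whose log2 CPM was most like that of MVP over the 12 libraries were HS3ST3B1, a heparan sulfate sulfotransferase (Pearson r = 0.960), TRIM25, a ubiquitin ligase (0.957), GMFG, an actin regulator (0.956), C6orf226 (0.952) and TSG101, an ESCRT-I subunit (0.952). All 5 were highest in S222A induced cells. HS3ST3B1 had 28.9 ± 8.01 CPM in S222A uninduced and 54.3 ± 5.39 CPM in S222A induced cells, and TRIM25 had 187 ± 19.0 and 327 ± 18.6 CPM (SD, n = 3). Within groups, after subtracting each group's mean, the correlation was 0.573 to 0.887. These 12 points share 4 groups and their depths, and the genes were picked for their likeness, so the values are a description only.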

How the data were processed

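The authors deposited raw whole-number counts for each gene symbol in 12 libraries. The submitters' processing notes list STAR 2.4, HTSeq 0.6.1, DESeq2 and hg19 with no role or order. Annotation and strandedness: not given in the sources used here. TruSeq RNA kits were used, per the labels' protocols. Columns were matched through the sample descriptions; the S222A columns lack that word in their names. Genes were filtered with edgeR's filterByExpr (minimum count 10) and tested in edgeR 4.0.16 (R 4.3.3) by robust quasi-likelihood F tests with TMM factors, 1 mean per group over 12 libraries (8 residual degrees of freedom), and Benjamini-Hochberg adjustment over 11474 genes, called under 0.05. The SE is the absolute log2 fold change over the square root of F, and 95% intervals follow from it. Levels are CPM with TMM factors. Separate cultures are not stated for the replicates, so a p-value reflects only how much these samples vary, possibly for technical reasons. Alternatives used DESeq2 1.42.0 and limma 3.58.1 among others. The code was tested on simulated data. Named genes are all members, the called genes of 7 pathway lists on S222A induction (up to 3 each way), the vault list, and the 5 genes most like MVP (log2 CPM, prior count 2). Members, lists and the split by depth were chosen with earlier results of these data known.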

Additional observations from a re-analysis of the deposited data

How the results depend on the processing

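The count of called members, 0 of 6, was kept in all 5 comparisons under every alternative except the term for the deepest libraries, which called 2 on S222A induction and 1 between the induced lines; the cause was not tested. Leaving out single libraries gave 0 throughout. MEF2C was called on S222A induction with that term alone (log2 0.34, adjusted p = 0.0282). Leaving out single libraries moved its log2 between -0.0092 and 0.17 on WT induction and between -0.17 and 0.0078 between the uninduced lines. Values near 0 changed sign: ABCC4 on S222A induction with upper quartile factors (0.0226), DESeq2 size factors (0.000948), DESeq2 (0.00654), limma-voom (0.0149), no filter (0.0260), 2 groups only (0.00901) and without the deepest libraries (0.0477). GCLM between the uninduced lines changed with no filter (-0.00858) and 2 groups only (-0.00325). Without the deepest libraries ABCC1 on WT induction (0.0585), GSTP1 between the induced lines (0.0149) and TEP1 on S222A induction (-0.18) changed too. Leaving out single libraries gave WT induction ranges of -0.23 to 0.034 (ABCC1), -0.067 to 0.24 (ABCC4), -0.34 to 0.087 (ABCC5), -0.23 to 0.042 (GSTP1) and -0.27 to 0.076 (GCLC). ABCC4 ranged from -0.12 to 0.15 on S222A induction and from -0.23 to 0.073 in the difference of effects. Between the uninduced lines GCLC ranged from -0.14 to 0.053 and GCLM from -0.13 to 0.076, and between the induced lines ABCC5 from -0.33 to 0.047 and GSTP1 from -0.16 to 0.028. On S222A induction TEP1 ranged from -0.33 to 0.32 and PARP4 from -0.16 to 0.55. With the replicate number as a block, 0 members were called and all genes called on S222A induction fell from 511 to 235. With the block TKT lost its call (adjusted p = 0.0722), as without a filter (0.134) and with only the 2 groups compared (0.0550). Same-numbered libraries correlated between -0.53 and 0.64 in their deviations from group means, and 0 of 12 correlated best with its own number. The deepest library, which lay apart from the rest of its group, did not have the same replicate number in every group. Depth and number are thus mixed in this check, which cannot tell whether same-numbered libraries were handled together. All genes called on S222A induction numbered 811 with DESeq2, 2052 with the term for the deepest libraries and 187 to 580 with single libraries left out. With that term the calls on S222A induction became 3 higher and 3 lower for the ABC genes, 3 and 4 for glutathione synthesis, turnover and reduction, 1 and 0 for the NRF2 regulators, 0 and 3 for the NRF2 targets and 3 and 0 for the reported regulators. DESeq2 called 2 ABC genes higher, 2 NRF2 targets lower and 2 reported regulators higher. The fit of only 2 groups could not be had for the difference of effects. Low counts left ABCB1, ABCC3 and ABCG2 untested, and MVP had 2 to 39 counts in each library outside the S222A induced group.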
